A study of Homo sapiens with 6 samples.

Results

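Circular RNAs (circRNAs) that were listed with reads in every library of one group and in no library of the other were described in BEAS-2B, a virus-immortalised cell line from human bronchial epithelium. The members were chosen by their junction reads alone. A cadmium-only circRNA was above 0 in all 3 cadmium libraries and listed at 0 in all 3 control libraries. A control-only circRNA was above 0 in all 3 control libraries and listed at 0 in all 3 cadmium libraries. Of 9857 circRNAs in the deposited table, 93 (0.943%) were cadmium-only and 212 (2.15%) were control-only, 305 in all. Because these reads chose the members, the difference between the groups is a description here, with no test of it.

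The 3 cadmium libraries (titled T-BEAS-2B) came from cells kept in 2.0 µM cadmium for 20 weeks, and the 3 control libraries (titled C-BEAS-2B) from cells kept at 0.0 µM for 20 weeks. The labels do not say what the prefixes T and C stand for, and do not say whether the libraries of a group come from separate cultures, so the spread between them may be technical. All 6 libraries shared the cell line, the culture medium, ribosomal RNA removal and digestion of linear RNA with RNase R, an exonuclease that spares closed circles. Cadmium is a toxic metal that binds thiol groups and is classed as a human lung carcinogen.

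A circRNA forms when the splicing machinery joins the end of a downstream exon to the start of the same or an upstream exon, which closes the RNA into a ring. The join is called the back-splice junction, and reads across it are the only ones that tell the ring from the linear transcript of the same gene. One gene can give many rings that differ in the exons at their ends, and most rings are far less abundant than their linear transcripts. The rings below are therefore named by host gene, by identifier and by the exons between their ends.

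Back-splice junctions are shown for the highest members of single host genes whose junction has coding sequence on both sides, some named members apart, because the reads counted are those that cross them. Each line gives the last bases of the downstream exon in lower case and then, in capitals, the first bases of the upstream exon, 5′ to 3′ on the transcript, with 20 bases on each side. Sequences and exon numbers are those of GENCODE 29 transcripts and positions are on GRCh38, counted from 1. The junctions of 6 cadmium-only circRNAs were as follows.
CRIM1 hsa_circ_0002017, exon 2 of 17, chr2:36396614-36396787, plus strand: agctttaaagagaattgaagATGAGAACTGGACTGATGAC
ABCA5 novel_circ_0013073, exons 25 to 28 of 39, chr17:69259706-69261748, minus strand: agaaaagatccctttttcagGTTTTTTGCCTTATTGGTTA
ZNF638 novel_circ_0025155, exons 3 to 8 of 28, chr2:71355719-71370005, plus strand: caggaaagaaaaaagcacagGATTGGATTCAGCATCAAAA
BRWD1 novel_circ_0021324, exons 20 to 25 of 42, chr21:39232177-39250889, minus strand: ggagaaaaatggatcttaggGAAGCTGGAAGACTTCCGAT
SLC22A15 hsa_circ_0008478, exons 3 to 4 of 12, chr1:116019582-116020885, plus strand: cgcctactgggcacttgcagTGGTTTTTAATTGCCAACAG
ELOA novel_circ_0018014, exons 4 to 5 of 11, chr1:23750845-23752518, plus strand: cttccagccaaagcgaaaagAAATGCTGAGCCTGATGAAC

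The junctions of 5 control-only circRNAs were as follows.
KIF4A novel_circ_0040270, exons 11 to 13 of 31, chrX:70341799-70343982, plus strand: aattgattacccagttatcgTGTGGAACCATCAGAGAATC
WAPL novel_circ_0001520, exons 16 to 17 of 19, chr10:86443275-86446449, minus strand: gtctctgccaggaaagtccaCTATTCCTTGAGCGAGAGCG
LIN54 hsa_circ_0003148, exons 3 to 4 of 13, chr4:82970327-82979006, minus strand: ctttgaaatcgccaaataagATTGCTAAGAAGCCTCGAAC
PARP8 hsa_circ_0072440, exons 10 to 14 of 26, chr5:50788523-50797233, plus strand: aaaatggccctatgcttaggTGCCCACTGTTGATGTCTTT
PPP1R7 novel_circ_0023934, exons 6 to 7 of 10, chr2:241160332-241163401, plus strand: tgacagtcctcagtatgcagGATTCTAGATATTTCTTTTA

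The ring of highest level among the cadmium-only circRNAs, from CRIM1, was a single exon. It is shown whole, with its first and last 20 bases in capitals, which meet at the junction above.
CRIM1 hsa_circ_0002017: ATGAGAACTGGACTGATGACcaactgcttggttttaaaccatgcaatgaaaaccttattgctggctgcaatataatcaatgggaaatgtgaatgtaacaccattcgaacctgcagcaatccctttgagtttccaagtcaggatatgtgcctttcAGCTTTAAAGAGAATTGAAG

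Libraries held 133185, 135686 and 160248 junction reads with cadmium, against 225769, 137919 and 165352 in control (two-sided exact permutation test, p = 0.2; the smallest p that 3 against 3 libraries allow is 0.1). They listed 8755 ± 91.1 circRNAs with cadmium and 9176 ± 246 in control (SD, n = 3 each; exact permutation p = 0.1). The group sums were 429119 reads with cadmium and 529040 in control, so equal abundance gives fewer reads with cadmium. No value of 1 occurs in the table, whose smallest value above 0 is 2, so a ring listed at 0 is one for which no value is given and not one shown to be absent. A floor of 3 counts over a group corresponds to 6.99 reads per 1000000 junction reads (CPM) with cadmium and 5.67 CPM in control. These floors cover counting error only, and only where a 0 stands for no read. As values of 1 are missing, a listed 0 may hide a read. Ratios to a floor also take the reads of the listing group without error, so they are descriptions and not lower bounds. None of 18 airway epithelial marker genes, such as keratins and E-cadherin, hosted a listed circRNA, nor did leukocyte or endothelial markers; of 14 mesenchymal markers 2 (ZEB1 and ZEB2) did. The labelled cell type could therefore not be checked in junction reads.

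The members lay at the bottom of the range of the table. A member had a median of 3 reads in each cadmium library, against 4, 3 and 3 reads in the control libraries. The highest value of any cadmium-only circRNA was 8, 10 and 10 reads in cadmium replicates 1 to 3, and the highest of any control-only circRNA was 19, 13 and 14 reads in control replicates 1 to 3. Summed over the 3 libraries, cadmium-only circRNAs had a median of 9 reads (6 to 23) and control-only circRNAs 11 reads (6 to 36). Together the cadmium-only circRNAs held 0.222%, 0.229% and 0.208% of the reads of the cadmium libraries, and the control-only circRNAs held 0.413%, 0.507% and 0.488% of the reads of the control libraries. On the CPM scale the sets were alike, with a median of 21.5 CPM for cadmium-only and 20.9 CPM for control-only circRNAs.

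Of the 93 cadmium-only circRNAs, 74 had exactly 2 reads, the smallest value listed, in at least 1 of their libraries, as did 127 of the 212 control-only circRNAs. In each of the 3 listing libraries 5 reads or more were found for 1 cadmium-only circRNA and 5 control-only circRNAs, and 10 reads or more for none in either set. Had a cadmium-only circRNA been as abundant in control, a median of 11.1 reads (7.40 to 28.4) would have been due over the 3 control libraries. The same value for control-only circRNAs in the cadmium libraries was 8.92 reads (4.87 to 29.2). In the cadmium-only set the median member was 3.70-fold above the floor of 3 counts over the control libraries. These ratios use the CPM of the reads pooled over the 3 libraries of the listing group and not the mean of the 3 values. In the control-only set the median member was 2.97-fold above the floor of the cadmium libraries.

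The highest cadmium-only circRNA was hsa_circ_0002017 of CRIM1, which encodes a membrane protein that binds bone morphogenetic proteins. It had 7, 6 and 10 reads in the cadmium libraries, against 0 in each control library, a level of 53.1 ± 9.10 CPM with cadmium (SD, n = 3). The pooled CPM of this ring with cadmium was 9.45-fold above the floor in control. It was the only cadmium-only circRNA with 5 reads or more in every cadmium library. CRIM1 gave 17 other listed rings, with 735, 724 and 1012 reads in the cadmium libraries and 1298, 775 and 894 in the control libraries. The single-exon ring held 0.922% of the CRIM1 reads with cadmium. Its start was shared with hsa_circ_0002346, which had 419 reads with cadmium and 555 in control, and its end with hsa_circ_0004182, which had 246 reads with cadmium and 230 in control. Both ends of the CRIM1 ring were thus in use in both groups, in other pairings.

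CNOT2, a subunit of the CCR4-NOT deadenylase that shortens poly(A) tails, hosted a ring (novel_circ_0005728, exons 3 to 4) with 6, 8 and 4 reads with cadmium. ABCA5, a lipid transporter of the ABC family, had 3, 10 and 5 reads (novel_circ_0013073). ZNF638, a zinc finger protein that binds nucleic acids, had 7, 6 and 3 reads (novel_circ_0025155). None of these was listed in control, and their means were 43.0 ± 17.1, 42.5 ± 27.4 and 38.5 ± 17.6 CPM (SD, n = 3). BRWD1, a bromodomain protein of chromatin, had 2, 9 and 5 reads with cadmium, and TTN-AS1, an antisense RNA of the titin locus, had 8, 2 and 4 reads. In both the libraries differed several-fold among themselves. The ends of the TTN-AS1 ring lay on bounds of exons 13 and 16 of a TTN-AS1 transcript on the plus strand. The kit kept the strand, but how the strand was used in counting is not stated. An origin of these reads in titin on the other strand was not tested.

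SLC22A15, a membrane transporter of the organic ion family, had 6, 3 and 5 reads with cadmium (hsa_circ_0008478), ELOA, the elongin A subunit that aids transcription elongation, 4, 3 and 7 (novel_circ_0018014), and SREK1, a splicing regulator, 4, 2 and 8 (novel_circ_0032108). Each of these 3 was the only listed ring of its host, so these genes had no listed junction read in control. CDC42BPB, a kinase downstream of the GTPase CDC42, and ZNF410, a zinc finger transcription factor whose ring overlaps AC005520.1, both had 5, 6 and 2 reads. BIRC6, a very large ubiquitin-conjugating inhibitor of apoptosis, had 4, 6 and 3 reads (hsa_circ_0000990). The 12 highest cadmium-only circRNAs ranged from 30.99 to 53.06 CPM with cadmium and were all listed at 0 in control.

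The highest control-only circRNA was novel_circ_0040270 of KIF4A, a kinesin that works on chromosomes in mitosis. It was listed at 0 in each cadmium library, against 19, 4 and 13 reads in the control libraries, a level of 63.9 ± 30.4 CPM in control (SD, n = 3). The pooled CPM of this ring in control was 9.73-fold above the floor with cadmium. KIF4A had 3 other rings, with 45, 51 and 41 reads with cadmium and 77, 53 and 76 in control. One of them, hsa_circ_0004278, shares the start of the control-only ring and had 98 reads with cadmium and 159 in control. The start used by the control-only ring was therefore also joined in the cadmium libraries.

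WAPL, which releases cohesin from chromatin, hosted a ring of exons 16 to 17 with 7, 13 and 7 reads in control and 55.9 ± 33.7 CPM (SD, n = 3). LIN54, the DNA-binding subunit of the DREAM complex that represses cell cycle genes, had 18, 7 and 6 reads in control (hsa_circ_0003148), which was 81.6% of its junction reads in control. The remaining LIN54 ring had 2, 8 and 2 reads with cadmium and 0, 4 and 3 in control. TVP23C, a Golgi protein whose ring also lies in the readthrough gene TVP23C-CDRT4, had 5, 4 and 14 reads. TVP23C has a close copy in the genome, TVP23B, so the placing of these reads is uncertain. ZFPM2, a cofactor of GATA factors on chromosome 8, had 14, 4 and 6 reads, and ARFIP1, which binds small GTPases of the Golgi, had 13, 5 and 5. Both were the only listed ring of their host, and in both control replicate 1, the deepest library, was the highest.

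UBAP2L, a component of stress granules, had 7, 6 and 6 reads in control, with the smallest spread of these 12 (36.9 ± 6.27 CPM, SD, n = 3). PARP8, a mono-ADP-ribosyltransferase, had 4, 7 and 6 reads in control, and FLVCR1, a transporter first known for heme export, had 5, 6 and 6 (hsa_circ_0016414). PPP1R7, a regulator of protein phosphatase 1, had 7, 2 and 9, POLE, the catalytic subunit of DNA polymerase epsilon, 4, 7 and 5, and LATS1, the Hippo pathway kinase, 7, 6 and 4. Another LATS1 ring that shares an end with the control-only ring, novel_circ_0033050, had 4 reads with cadmium and 31 in control. PPP1R7 and POLE had no other listed ring. The 12 highest control-only circRNAs ranged from 32.9 to 63.9 CPM in control and were all listed at 0 with cadmium.

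**Figure D1:**
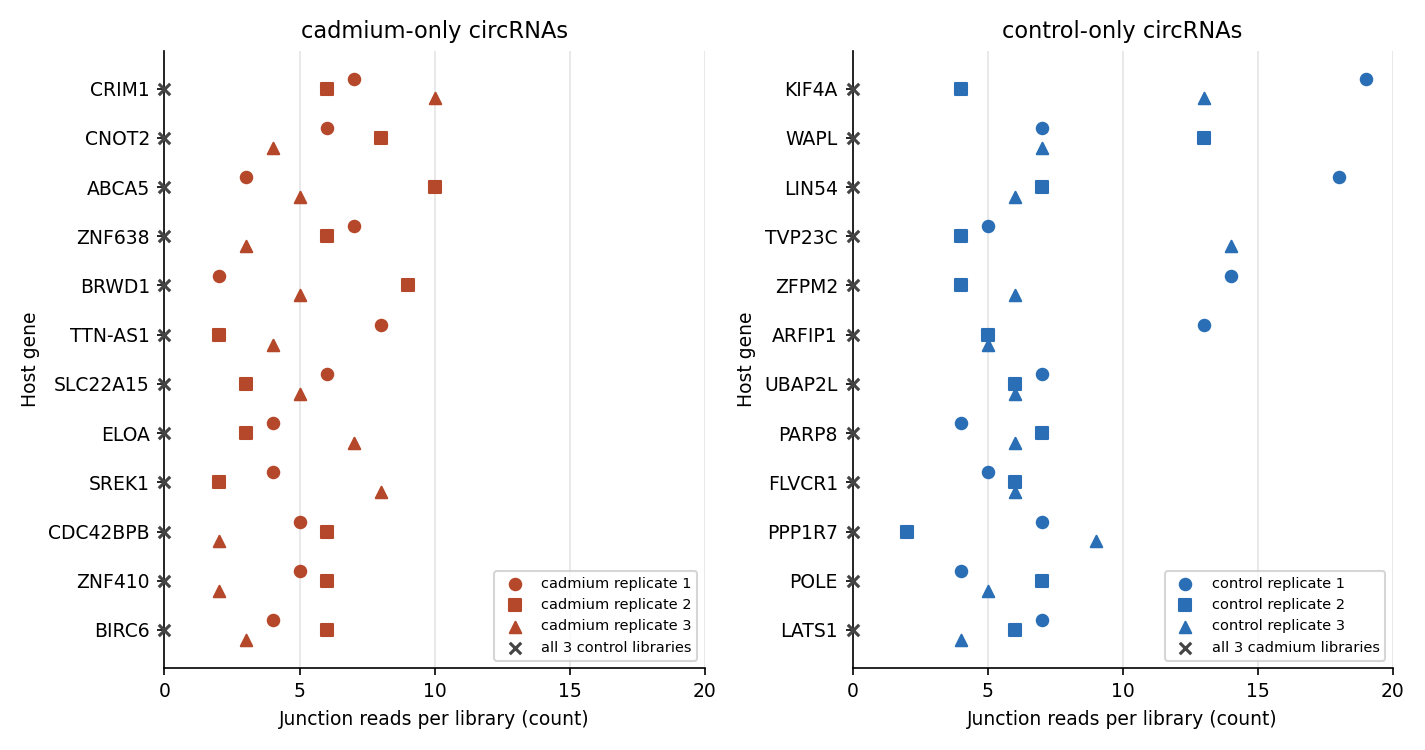
Junction reads per library (horizontal axis, count) for the 12 cadmium-only (left) and 12 control-only (right) circRNAs of highest mean CPM, by host gene; each symbol is 1 library of the listing group and crosses at 0 stand for all 3 libraries of the other group. Values reach 10 reads with cadmium and 19 reads in control, and libraries of a group differ several-fold for rings such as BRWD1 and KIF4A.

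At the other end, 3 cadmium-only circRNAs (hosts PRRC2C, POLQ and NCOR1) and 8 control-only circRNAs had exactly 2 reads in each listing library. Just outside the rule were rings with a single value of 2 reads in the other group, 72 listed in all cadmium libraries and 184 listed in all control libraries. Among them PUS7, a pseudouridine synthase, had 10, 6 and 12 reads with cadmium and 2, 0 and 0 in control (novel_circ_0034496), a larger sum than that of any cadmium-only circRNA. FBN2, the matrix protein fibrillin-2, had 0, 0 and 2 reads with cadmium and 7, 6 and 11 in control (novel_circ_0030326). VPS13A, a lipid transfer protein, had 0, 0 and 2 reads with cadmium and 10, 9 and 3 in control (hsa_circ_0087248). The bound of the rule thus ran between rings of the same level.

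The 2 sets were the ends of a graded distribution. Among rings above 0 in all 3 cadmium libraries, 93 were listed in no control library, 346 in 1 and 1072 in 2. Among rings above 0 in all 3 control libraries, 212 were listed in no cadmium library, 625 in 1 and 1419 in 2. A further 6090 were listed in all 6 libraries. Of the 346 rings with 1 control library, that library was replicate 1, the deepest, for 200, replicate 2 for 71 and replicate 3 for 75. Of the 625 with 1 cadmium library, it was replicate 1 for 196, replicate 2 for 186 and replicate 3, the deepest of its group, for 243. The library that kept a ring out of a set was thus most often the deepest of its group.

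**Figure D2:**
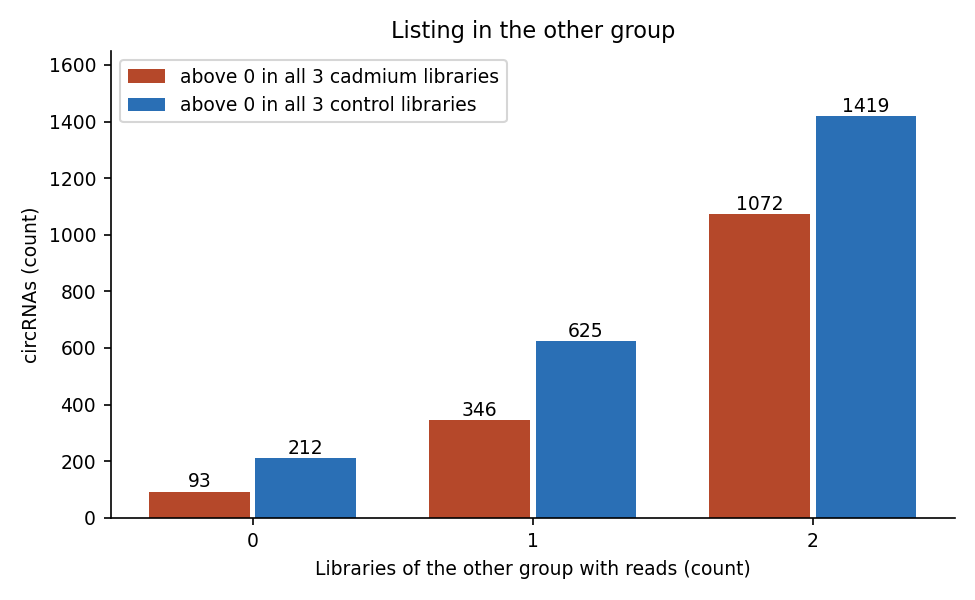
Number of circRNAs (vertical axis, count) above 0 in all 3 libraries of one group, by the number of libraries of the other group with reads (horizontal axis); red bars are rings listed in all cadmium libraries, blue bars rings listed in all control libraries. Counts climb from 93 to 1072 and from 212 to 1419 as more libraries of the other group have reads.

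Which set was larger depended on the bounds for presence and absence. The smallest value, 2 reads, was worth 15.0, 14.7 and 12.5 CPM in the cadmium libraries and 8.86, 14.5 and 12.1 CPM in the control libraries, so lower rings could enter the table in control. When a ring counted as present at 15.02 CPM or more and as absent below it in every library, 152 circRNAs were cadmium-only and 104 control-only, and the order of the 2 sets turned. That bound asks for 2, 3 and 3 reads in the cadmium libraries and 4, 3 and 3 in the control libraries. As absence it lets a cadmium-only ring have up to 3, 2 and 2 reads in the control libraries. A control-only ring may have up to 0, 2 and 2 reads in the cadmium libraries, since no value of 1 occurs. Absence was thus the looser for the cadmium-only set. With this bound for presence alone, and 0 reads still asked of the other group, 42 of the 93 cadmium-only and 62 of the 212 control-only circRNAs were left, and the order did not turn. Without control replicate 1, 293 circRNAs were cadmium-only. No direction is read from the sizes 93 and 212.

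**Figure D3:**
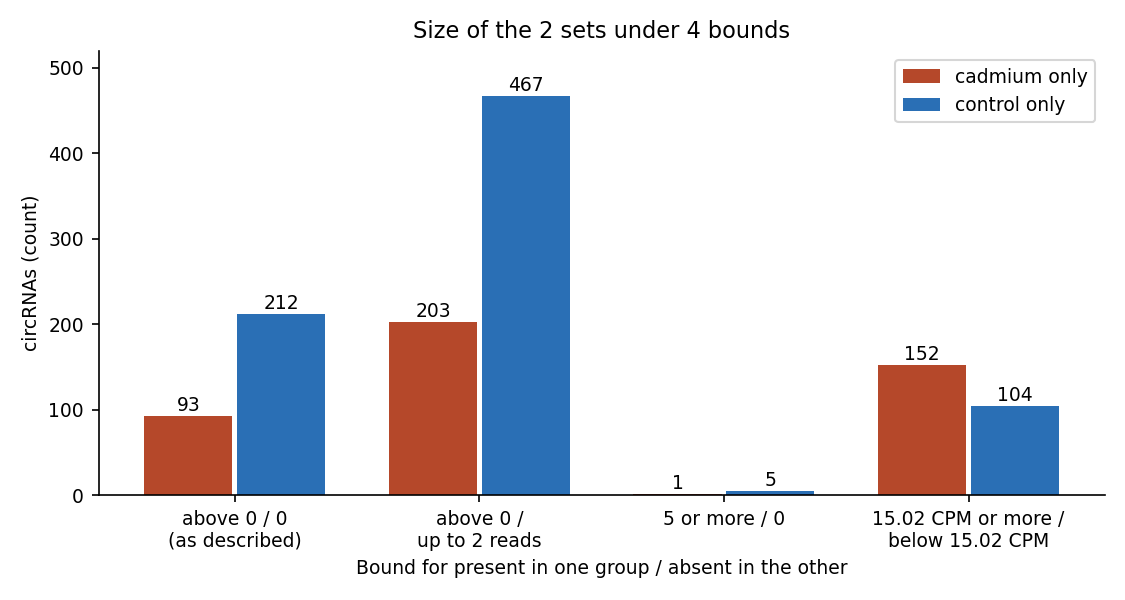
Number of circRNAs (vertical axis, count) in the cadmium-only (red) and control-only (blue) sets under 4 bounds for presence in one group and absence in the other (horizontal axis). Cadmium-only circRNAs are fewer than control-only ones under 3 bounds (93 cadmium-only and 212 control-only as described), and the order turns under the equal CPM bound (152 cadmium-only and 104 control-only). As absence, the equal CPM bound allows more reads in the control libraries than in the cadmium libraries.

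Whether a test across the whole table calls these rings was looked at next. With the quasi-likelihood test of edgeR, 5 of 6182 circRNAs tested passed a Benjamini-Hochberg adjusted p of 0.05 (0.0809%), and 513 had an unadjusted p under it (8.3%). Only 2 of 305 members, those of CRIM1 and LIN54, passed the filter on low counts, and 0 of these were called, though both had an unadjusted p under 0.05. DESeq2 called 5 of 9856 circRNAs tested, and 540 had an unadjusted p under 0.05 by it. Of the 305 members it called 0, and 245 had an unadjusted p under 0.05. In the authors' deposited table, which flags rings by an unadjusted p under 0.05, 506 of 9853 rings were flagged (5.14%), 2.39% as higher and 2.75% as lower with cadmium. The flag was set for 81 of the 93 cadmium-only circRNAs (87.1%) and for 124 of the 212 control-only circRNAs (58.5%), and members made up 40.5% of all flagged rings. No member had an adjusted p in the authors' deposited table, where 3939 of all 9857 rings had one. The deposited log2 fold change had a median of 0.83 for cadmium-only and -0.77 for control-only circRNAs. It is finite although the deposited mean of the other group is 0. It is therefore not the plain ratio of the deposited means. These counts come from the contrast that chose the members and are given as a description.

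Most members of both sets were made of exons. The annotation classed 90 of 93 cadmium-only (96.8%) and 200 of 212 control-only circRNAs (94.3%) as exonic, against 95.4% of all listed rings. For comparison 2701 other rings with a mean of 13.8 to 33.2 CPM in their higher group, the range that holds most members, were taken as rings of like level, of which 94.7% were exonic. Being listed in both groups, these had more reads over the 6 libraries (median 19, against 10 for members) and a median of 25.6 CPM in the higher group, against 21.2 CPM for members. Intronic rings numbered 3 among cadmium-only and 11 among control-only circRNAs. The highest intronic ones were in ARID1B, a subunit of the BAF chromatin remodeller (5, 4 and 2 reads with cadmium), and in AC073107.1 (9, 4 and 3 reads in control). One control-only ring on chromosome 19 was intergenic (novel_circ_0015357), with 3, 2 and 7 reads in control.

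Fewer members had a circBase-style name than the rest of the table. Identifiers of the hsa_circ form were carried by 43.0% of cadmium-only and 42.5% of control-only circRNAs, against 52.4% of rings of like level and 68.0% of all rings. The remaining members had names given in the deposited files only. Both ends lay on GENCODE 29 exon bounds for 93.3% of exonic cadmium-only and 93.5% of exonic control-only circRNAs, against 95.6% of rings of like level and 96.3% of all. The ends of the members were therefore almost as often at known splice sites as those of other rings.

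Deposited lengths were shorter for members, with a median of 312.5 bases for exonic cadmium-only and 337 for control-only circRNAs, against 356 for rings of like level and 380 for all exonic rings. Lengths counted from the GENCODE transcript between the same ends differed less, with medians of 409 bases for cadmium-only, 414.5 for control-only, 434 for like-level and 412 for all rings, so members remained below rings of like level. The deposited exon list stopped short of at least 1 end of the ring in 31.1% of cadmium-only and 27.5% of control-only exonic circRNAs, against 23.4% at like level and 14.4% overall. Over the table, members included, this share was 28.3% for rings with 6 to 15 reads over the 6 libraries. It was 21.1% for 16 to 30 reads, 10.9% for 31 to 100 and 5.45% above that, up to 8357. A deposited list of 1 exon was found in 25.6% of cadmium-only and 22.5% of control-only circRNAs, whereas only 3.75% and 3.26% had 1 transcript exon between their ends.

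The name also moved with the length. Among hsa_circ names, deposited and transcript lengths were equal for 37 of 38 cadmium-only and 82 of 86 control-only circRNAs with a matched transcript. Among the other names they were equal for 17 of 42 and 50 of 98, with median deposited lengths of 293 and 304 bases against transcript lengths of 420.5 and 401. ELOA is an example, with 112 bases deposited and 1298 in the transcript between its ends, and KIF4A another, with 106 and 298. Over the whole table the lengths were equal for 6003 of 6374 hsa_circ names and for 1287 of 2523 others, whose medians were 330 bases deposited and 411 in the transcript. The short deposited lengths were thus found in rings without an hsa_circ name in the table as a whole as well as in the members, and which exons such a ring holds between its ends is not settled by the junction reads.

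**Figure D4:**
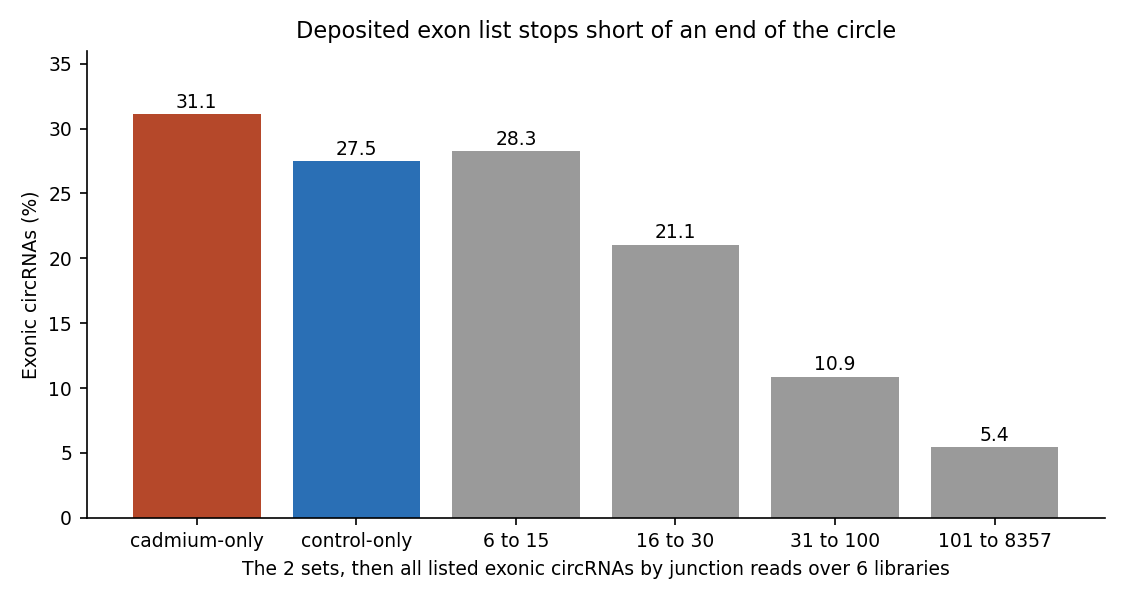
Share of exonic circRNAs (vertical axis, percent) whose deposited exon list stops short of an end of the ring, for cadmium-only (red) and control-only (blue) circRNAs and, in grey, for all listed exonic circRNAs by their junction reads over 6 libraries. The members, at 31.1% and 27.5%, stand near the grey bar of 6 to 15 reads (28.3%). The grey bars include the members, most of which fall in that bar, so the nearness is partly built in.

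Base composition was alike in all groups of rings, whereas introns differed. The median GC content was 44.6% in both sets, 44.6% at like level and 44.4% over all rings. Exon 2 was the first exon of 17.5% of cadmium-only and 26.1% of control-only circRNAs, against 26.1% at like level and 29.03% over all. The ring ended in AG, the usual end of an exon, in 70.0% of cadmium-only and 62.5% of control-only circRNAs, against 56.7% and 57.7%. The intron before the ring had a median of 3292 bases for cadmium-only and 6279 for control-only circRNAs, against 5652 at like level and 6489 over all, and the intron after it 3855 and 4306 against 4820 and 5852. Genomic spans had medians of 4784 and 7090 bases, against 6680 and 6427. Of these 4 groups of rings the cadmium-only circRNAs, 80 of them with a matched transcript, had the lowest medians of both introns and of the span. No test was made, since rings of a gene share introns and the sets rest on the reads of the same libraries.

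By chromosome, no cadmium-only circRNA lay on chromosomes 4, 18 or X. Control-only circRNAs numbered 12, 5 and 6 there, among 311, 245 and 194 listed rings. Members of either set were 3.86%, 2.04% and 3.09% of those rings, against 3.09% over all listed rings. Cadmium-only circRNAs were 0.943% of all listed rings, so few were due on any of these chromosomes. Chromosome 14 held 6 cadmium-only and 2 control-only circRNAs (3.42% of 234 listed rings), and chromosome 13 held 3 and 1 (1.72% of 232). The share of reads taken by rings outside the sets overlapped between the groups on chromosome 4 (3.54% to 3.85% with cadmium, 3.71% to 4.01% in control), on X (1.39% to 1.49% with cadmium, 1.44% to 1.49% in control) and on 14 (1.79% to 1.92% with cadmium, 1.75% to 1.85% in control). On chromosome 18 the rings outside the sets took 2.97%, 2.81% and 2.89% of reads in the cadmium libraries and 3.51%, 3.61% and 3.49% in the control libraries. On chromosome 13 they took 2.00%, 1.99% and 2.03% with cadmium and 1.76%, 1.74% and 1.68% in control. Of these 5 chromosomes the groups did not overlap on 18 and 13, where the other rings lay on the same side as the members. The groups also did not overlap on chromosomes 1, 2, 7, 11, 16, 17, 19, 20 and 22, so this was common over the table. On chromosome 16, with 4 cadmium-only and 10 control-only members, the other rings were higher with cadmium. They took 2.68% to 2.88% of reads with cadmium and 2.38% to 2.52% in control.

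Members came from 279 single host genes, 86 with cadmium-only and 201 with control-only circRNAs. The host had no other listed ring for 22 of 87 cadmium-only (25.3%) and 65 of 206 control-only circRNAs (31.6%), against 18.9% at like level and 17.9% over all rings. Where the host had other rings, the member held a median of 8.87% of its junction reads in cadmium for cadmium-only and 10.1% in control for control-only circRNAs. An end was shared with another listed ring by 45 cadmium-only (48.4%) and 91 control-only circRNAs (42.9%), against 54.5% at like level and 59.7% over all. For all 45 cadmium-only and for 86 control-only circRNAs, a ring outside the sets used that same end.

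In 8 genes one ring was cadmium-only and another control-only, namely BIRC6, HP1BP3, CKAP5, SOAT1, TPX2, C16orf62, GLE1 and LARS. In LARS, the cytosolic leucyl-tRNA synthetase, both rings began at exon 3 and differed in their last exon. The ring of exons 3 to 6 had 5, 2 and 4 reads with cadmium and 0 in control, and the ring of exons 3 to 5 had 0 reads with cadmium and 3, 6 and 4 in control. A longer LARS ring from the same exon had 3, 5 and 4 reads with cadmium and 12, 2 and 0 in control. The capitals of the pair are identical and the lower-case ends differ, as follows.
LARS hsa_circ_0074414, exons 3 to 6 of 32, chr5:146164310-146172774, minus strand: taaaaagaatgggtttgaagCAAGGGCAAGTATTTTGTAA
LARS novel_circ_0030907, exons 3 to 5 of 32, chr5:146168128-146172774, minus strand: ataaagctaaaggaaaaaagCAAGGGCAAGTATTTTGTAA

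GLE1, an mRNA export factor, gave a single-exon cadmium-only ring with 3, 3 and 3 reads with cadmium, and a control-only ring of exons 4 to 9 with 3, 4 and 2 reads in control. The cadmium-only ring is shown whole, with its first and last 20 bases in capitals.
GLE1 hsa_circ_0088807: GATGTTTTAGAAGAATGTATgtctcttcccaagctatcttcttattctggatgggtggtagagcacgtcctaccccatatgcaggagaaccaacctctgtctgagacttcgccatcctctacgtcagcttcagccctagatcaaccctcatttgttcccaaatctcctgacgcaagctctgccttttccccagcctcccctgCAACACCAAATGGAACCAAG

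In BIRC6 the cadmium-only ring lay in exons 9 to 10 of 74 and the control-only ring, with 4, 3 and 6 reads in control, in exons 62 to 66. The 21 other BIRC6 rings had 202, 168 and 227 reads with cadmium and 292, 180 and 189 in control. CKAP5, a microtubule polymerase, had 3, 2 and 2 reads with cadmium for its ring of exons 33 to 35 and 3, 4 and 3 reads in control for its ring of exons 10 to 13. TPX2, a spindle assembly factor, had 2, 3 and 5 reads with cadmium (exons 16 to 17) and 5, 4 and 3 in control (exons 6 to 9). HP1BP3, a protein related to linker histones, had 3, 2 and 2 with cadmium (exons 4 to 6) and 3, 3 and 6 in control (exons 5 to 7). SOAT1, which esterifies cholesterol, had 2, 3 and 3 with cadmium and 4, 2 and 7 in control, and C16orf62, also known as VPS35L, a subunit of an endosomal retrieval complex, 6, 3 and 2 with cadmium and 3, 2 and 3 in control. Of these 8 pairs only that of LARS shared an end.

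Several members of one set came from DOCK1, a guanine nucleotide exchange factor for RAC, with 2 cadmium-only rings, and from UGCG, CCAR1, FLVCR1, CHFR and MFF, each with 2 control-only rings. MFF, the receptor that recruits DRP1 for mitochondrial fission, had 0 reads in all cadmium libraries. Its ring of exons 2 to 3 had 8, 3 and 5 reads in control and its ring of exons 2 to 4 had 2, 5 and 3, both from the same start. FLVCR1 gave, beside the ring of exons 3 to 8 described above, a ring of exons 2 to 8 with 2, 3 and 3 reads in control, which ends at the same exon.

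CHFR, a mitotic checkpoint ubiquitin ligase, had control-only rings of exons 5 to 7 (5, 4 and 4 reads in control) and of exons 7 to 12 of another transcript (5, 2 and 4). Its 2 other rings had 20, 19 and 42 reads with cadmium and 11, 2 and 15 in control, so they lay on the opposite side. FANCA, of the Fanconi anaemia core complex, likewise had a control-only ring with 3, 2 and 4 reads in control, while its 3 other rings had 24, 20 and 37 reads with cadmium and 13, 8 and 16 in control. VCL, the focal adhesion protein vinculin, had a cadmium-only ring with 2, 2 and 4 reads with cadmium, and its 4 other rings had 16, 14 and 13 reads with cadmium and 39, 24 and 28 in control. In CHFR, FANCA and VCL the other rings stood opposite to the member, but none of these hosts was called (edgeR adjusted p = 0.178, 0.178 and 0.317). These hosts were picked after their values were seen.

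Over all hosts, no gene was called by the other rings of a member's host, and the medians lay on the side of the member. Junction reads were summed per host without the members and tested with edgeR, and 7 of 2993 genes passed an adjusted p of 0.05 (0.234%), 1 higher (0.0334%) and 6 lower (0.2%) with cadmium. None of the 61 hosts of cadmium-only circRNAs tested was called. Among these hosts 9 were higher and 1 was lower at an unadjusted p under 0.05, and the median log2 fold change, cadmium over control, was 0.13 (43 higher, 18 lower). None of the 117 hosts of control-only circRNAs tested was called either, with 5 higher and 12 lower at an unadjusted p and a median of -0.09 (45 higher, 72 lower). DESeq2 gave an adjusted p for 14 hosts of cadmium-only and 34 hosts of control-only circRNAs and called 0 of them. Over all 2993 genes the median was 0.000344, with 171 higher and 189 lower at an unadjusted p. The hosts were chosen through reads of the same libraries, so these counts are a description.

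**Figure D5:**
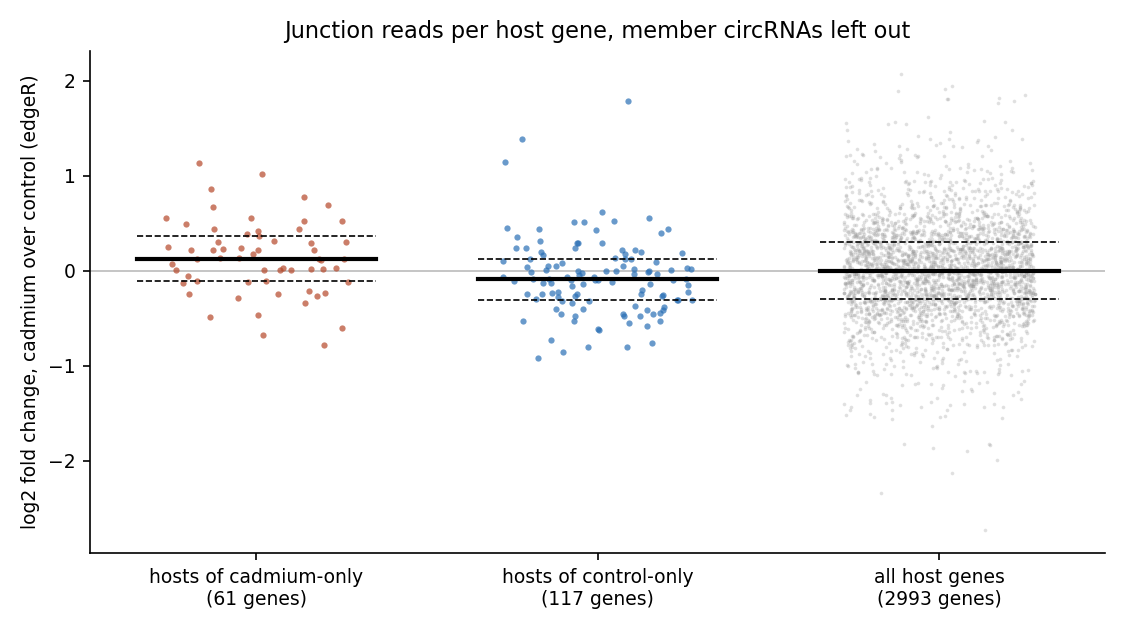
Log2 fold change, cadmium over control, of junction reads summed per host gene without member circRNAs (edgeR; vertical axis), for hosts of cadmium-only (red) and control-only (blue) circRNAs and for all host genes tested (grey). Each point is 1 gene, the solid line the median (0.13, -0.09 and 0.000344) and dashed lines the quartiles; the 3 distributions overlap over most of their range.

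By function, members were found in all 8 gene lists examined, at 2.21% to 4.47% of the listed rings of a list, against 3.09% of all listed rings. The lists hold 45 to 66 genes each and are not complete, so the counts are those of the listed genes and not of the whole class. The CDC42BPB kinase above, for example, is on none of them. The DNA repair and cell cycle list (56 genes) held 2 cadmium-only rings (CHEK1, the checkpoint kinase, with 2, 3 and 5 reads, and POLQ, DNA polymerase theta, with 2, 2 and 2) and 4 control-only rings (CENPF, FANCA, RBL1 and REV3L). CENPF, a kinetochore protein, had 4, 5 and 5 reads in control and no other ring. Of the 43 hosts of this list tested without members, 0 rose and 0 fell (median log2 fold change 0.10). The list of chromatin modifiers and remodellers (58 genes) held ARID1B and CREBBP among cadmium-only hosts and DNMT1, NSD1, SMARCC1 and TET1 among control-only hosts. TET1, which oxidises methylcytosine, had 8, 4 and 4 reads in control, and DNMT1, the maintenance DNA methyltransferase, had 2, 4 and 3. Of 40 hosts tested 0 rose and 0 fell (median -0.13).

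The adhesion, matrix and cytoskeleton list (59 genes) had the largest share of members of these lists (4.47%), with 4 cadmium-only rings from DOCK1, LAMC1 and VCL and 7 control-only rings, among them ADAM10, a membrane sheddase (7, 3 and 4 reads in control), and PARD3, a polarity protein (2, 3 and 4). LAMC1, the laminin gamma-1 chain, had 2, 6 and 2 reads with cadmium. Of 38 hosts tested 1 fell, PTPRG, a receptor tyrosine phosphatase that hosts no member (148, 123 and 141 reads with cadmium, 490, 253 and 333 in control; log2 fold change -1.08, edgeR adjusted p = 0.00127), and the list median was -0.21. The vesicle traffic and autophagy list (58 genes) held 1 cadmium-only ring (ATG7, needed for autophagosome formation, 3, 4 and 4 reads) and 7 control-only rings, among them CLTC, the clathrin heavy chain (4, 3 and 3 in control). Of 47 hosts tested 1 fell, VAPA, an anchor of endoplasmic reticulum contacts that hosts no member (239, 233 and 267 reads with cadmium, 666, 454 and 444 in control; log2 fold change -0.80, edgeR adjusted p = 0.00483), and the list median was -0.03.

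The 45 genes listed for metal handling and oxidative stress held 1 ring of each set out of 81. The transporter genes SLC31A1 (cadmium-only) and SLC30A4, SLC41A2 and FLVCR1 (control-only) host members but are not on this list. These counts are therefore not those of all metal-handling hosts. HIF1A, the hypoxia-inducible transcription factor, had 4, 2 and 3 reads with cadmium (hsa_circ_0032135), and SOD1, the copper-zinc superoxide dismutase, had 4, 2 and 4 reads in control (novel_circ_0021096). Of 22 hosts tested 0 rose and 0 fell (median -0.06). The list of 66 kinases and phosphatases held PRKD3 among cadmium-only hosts and LATS1, NEK1 and PPP6R3 among control-only hosts. Of 45 hosts tested 1 fell, PPP6R2, a regulatory subunit of protein phosphatase 6 that hosts no member (31, 28 and 22 reads with cadmium, 111, 48 and 91 in control; log2 fold change -1.31, edgeR adjusted p = 0.0438), with a list median of -0.16. The list of 62 ubiquitin ligases and deubiquitinases held BIRC6 in both sets and CHFR, HERC1, HERC4, UBE3A and UBR2 among control-only hosts, with 0 of 53 hosts called (median -0.06). The list of 55 splicing and RNA-binding genes held LARP4, SREK1 and ZNF638 among cadmium-only hosts and RBM39 and SCAF11 among control-only hosts, with 0 of 35 called (median -0.04).

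A near copy, with both ends within 10 bases, was listed for 3 of 212 control-only (1.415%) and 0 of 93 cadmium-only circRNAs. The share was 1.26% at like level and 1.32% over all listed rings, so it was near that of the table. The 3 copies were listed in both groups. The DNAJC5 ring had 0 reads with cadmium and 2, 2 and 2 in control, while its copy hsa_circ_0007609, 5 bases apart at the start, had 52, 47 and 73 reads with cadmium and 89, 45 and 89 in control. RASAL2, a RAS GTPase-activating protein, had 7, 3 and 3 reads in control, and its copy had 8, 7 and 6 with cadmium and 16, 4 and 7 in control. ZNF519 had 12, 4 and 2 reads in control, and its copy 3, 4 and 2 with cadmium and 5, 3 and 0 in control. In DNAJC5, RASAL2 and ZNF519 the gene therefore gave a ring of nearly the same sequence in both groups.

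Non-junction reads, which the deposited annotation gives for each ring and library without saying how they were counted, had a median of 30 per listing library for cadmium-only and 19.5 for control-only circRNAs, against 27.7 for rings of like level and 31 over all rings. Since linear RNA had been digested, these reads do not give the level of the linear transcript.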

How the data were processed

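BEAS-2B libraries (3 cadmium, 3 control) were grouped by the treatment in the labels. Per the labels' protocols, 5 µg of RNA was freed of ribosomal RNA and digested with RNase R (3 U per µg). The deposited counts are back-splice junction reads, and the deposited TPM are counts scaled to 1000000 junction reads per library with no length term. The authors' comparison gives a mean signal of normalised reads per group, log2 fold changes and p-values. The submitters' processing notes name Bowtie, Bowtie2 2.2.8, DESeq 1.10.1 and hg19 without their roles, and no circRNA caller is stated in the labels. Positions follow GRCh38: 98.0% of exonic starts and 98.1% of ends lie on GENCODE 29 exon bounds. A transcript matched both ends of 264 members.

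The count table lists a ring where all 3 libraries of some group are above 0. The test was edgeR 4.0.16 in R 4.3.3 (quasi-likelihood, TMM, robust, filterByExpr with minimum count 5 and total 15, Benjamini-Hochberg adjusted p under 0.05). The fit was also run on simulated counts, whose changed rings were expected above 15 reads per library. That run does not cover rings as low as the members, and its outcome is not reported here. Alternatives are in the closing section. CPM are per total junction reads. Within groups, every pair of libraries exceeded the noise of counting (chi-square over degrees of freedom 1.75 to 3.15). Only rings above a bound on the reads of the pair entered, 3017 to 4156 per pair, and most members lay below it.

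Named were the 12 highest members per set, hosts with members in both sets or several in 1, the highest intronic and intergenic members and those at the edges of the rule; other names were chosen after values were seen. Members, lists and tests were chosen with earlier results of these data known. Flanking intron sequence is not used here, and the junction sequences of some named members are not reported here.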

Additional observations from a re-analysis of the deposited data

How the results depend on the processing

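The size of the sets moved with every change of bound except the use of the TPM columns, which gave 93 and 212 again. With 5 reads or more in each listing library, 1 ring was cadmium-only and 5 were control-only, and with 10 or more 0 and 0. With up to 2 reads allowed in each library of the other group the sets held 203 and 467 rings, and under the equal CPM bound 152 and 104. Leaving out each library in turn gave 93 to 293 cadmium-only rings (293 without control replicate 1, 164 without 2, 168 without 3) and 212 to 455 control-only rings (408, 398 and 455 without cadmium replicates 1, 2 and 3). The table lists only rings above 0 in all 3 libraries of some group. Leaving out a library of the listing group could therefore not change a set, and 93 and 212 were fixed there. Leaving out a library of the other group could only enlarge it. The median summed reads were 23 in both sets at 5 reads or more per library.

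The edgeR count of 5 circRNAs ranged over 0 to 13 when 1 library was left out (0 without control replicate 1, 1 without 3, 13 without 2, 3 and 9 without cadmium replicates 2 and 3). It was 5 with other size factors, with library totals, without the filter and with DESeq2, and 4 with the replicate number as a block. The numbers do not pair the libraries, whose deviations correlated at 0.00027, 0.0214 and 0.0517. Members called stayed at 0 except 1, that of KIF4A, without control replicate 2 (0 to 1 over these fits). Without the filter all 305 had an unadjusted p under 0.05 and 0 were called, against 1015 and 5 of 9857 rings. DESeq2 gave 245 and 0, against 540 and 5 of 9856 rings. The reads behind these p also chose the members, so the counts are a description. Of 2993 host genes tested without members, 7 were called, against 11 of the 396 to which DESeq2 gave an adjusted p, 6 with the block and 3 to 14 with 1 library left out (3 without control replicate 1 or cadmium replicate 2, 4 without cadmium replicate 1, 14 without cadmium replicate 3, 11 without control replicate 2). The cause of these moves was not tested. At 2 to 19 reads per library, absence from a group could not be told from a low level.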
